A study of Caenorhabditis elegans with 357 samples.

Results

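The cuticlin family of Caenorhabditis elegans comprised 35 genes in these data, 6 named cut and 29 named cutl, out of 19364 genes listed for both strains. Members were taken by gene symbol alone, so no measured value picked single genes. The family itself was chosen with earlier results of these data known. All 35 matched the Ensembl 115 annotation of WBcel235, where they lie on every nuclear chromosome, with 7 on I, 9 on II, 4 on III, 5 each on IV, V and X. Expression was measured in single larvae of the fourth larval stage (L4), 1 polyA SMART-seq2 library per animal. The animals were of the wild-type strain N2 or carried tph-1(mg280), a mutant allele of tryptophan hydroxylase, the enzyme of serotonin synthesis (strain MT15434). Every animal had been raised alone in its own arena on agar with killed OP50 bacteria, filmed, and cut open for lysis. The labels give the minutes each animal had spent in L4, from 10.7 to 599.2 in N2 and from 9.6 to 596.0 in tph-1, and a set number that they do not define. There were 8 N2 and 4 tph-1 sets, each of 1 strain. Nothing in the labels ties a set to a date or a culture, so sets were treated as units that may share a run.

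Cuticlins are components of the insoluble fraction of the nematode cuticle, the layer that remains after collagens have been dissolved, and they are held there by covalent cross-links between tyrosines. Most carry a zona pellucida domain, a module of extracellular matrix proteins that assembles into fibrils, and several are known from alae, the ridges that seam cells lay down along the body. CUT-2 differs in kind: it is a short repetitive protein without that domain, described as a substrate of tyrosine cross-linking. During L4 the epidermis prepares the adult cuticle under the larval one, and the larval cuticle is shed at the moult that ends the stage.

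Levels are given in RPM, in which the counts of each library are scaled to a common total over its genes. The N2 libraries held between 587469 and 11544404 such reads, with 2922062 at the median. The tph-1 libraries were shallower, with 437993 to 5175666 reads and 1764815 at the median. A read was worth 0.0866 to 1.70 RPM in N2 libraries and 0.193 to 2.28 RPM in tph-1 libraries. Levels near these values could not be told from 0 in a single animal. For signed comparisons the stage was cut at 200 and 400 min into an early, a middle and a late window. Of the N2 animals 49 were early, 67 in the middle and 77 late, and of the 164 tph-1 animals 47, 70 and 47. Libraries were made from whole animals, so fewer cells of a type and less RNA per cell cannot be told apart in any result given here. A gene was tested when it reached 5 RPM in at least 10% of the animals, which 30 members did. The other 5, cut-1, cut-3, cutl-7, cutl-19 and cutl-25, had means between 1.35 and 1.91 RPM. Of these, cut-1 and cut-3 are known from the dauer larva and the first larval stage.

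The family was unequal in level, and cut-2 stood far above the other members. Per kilobase of exon, the mean level of cut-2 was 1411 RPM per kb over both strains, and the next members were cutl-10 at 16.4, cutl-20 at 14.1, cutl-3 at 11, cutl-15 at 11 and cutl-18 at 9.48 RPM per kb. The lowest were cut-1 at 1.28, cut-3 at 1.08 and cutl-7 at 0.839 RPM per kb. The share of cut-2 in the summed RPM of all 35 members had a median of 1.48% in early, 44.2% in middle and 93.4% in late N2 animals. In tph-1 the corresponding medians were 2.20%, 20.2% and 93.7%. With cut-2 left out, the summed RPM of the other 34 members had medians of 317, 321 and 174.6 in N2 and 377, 259 and 180 in tph-1. A sum over the family therefore followed cut-2 late in the stage and the other members early.

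Most tested members changed along the stage. With a spline of the minutes and set as a covariate (limma, Benjamini-Hochberg adjusted p under 0.05 and a fitted range of at least 1 log2 unit between 30 and 570 min), 21 of 30 members were called in N2, where 51.1% of all 14293 tested genes were. In tph-1 27 of 30 members were called, against 74.9% of all tested genes. In both strains 20 of 30 were called, against 47.3% of all tested genes, and cutl-4 and cutl-27 were called in neither. The median fitted range of the members was 2.04 log2 units in N2 and 2.00 in tph-1, beside 1.03 and 1.40 over all tested genes. The widest ranges were those of cut-2, at 9.93 in N2 and 9.85 in tph-1. They were followed in N2 by cutl-18 at 4.27, cut-4 at 3.66 and cutl-10 at 3.65.

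The peak times of the fitted curves spread over the stage. In successive steps of 100 min, the called peaks of the 30 members in N2 numbered 2, 7, 0, 6, 4 and 2. The same steps held the called peaks of 19.9%, 9.02%, 2.66%, 3.79%, 2.97% and 12.7% of all tested genes. In tph-1 the members' peaks numbered 16, 2, 3, 2, 4 and 0, beside 47.4%, 7.23%, 4.49%, 2.29%, 2.03% and 11.4% of all tested genes. There 15 of the 27 called members were highest at 30 min, the earliest point searched. The count of 0 between 200 and 300 min in N2 is near the share of all tested genes and depended on the curve: with a spline of 6 df the peaks of cutl-6, cutl-28, cutl-18 and cut-6 lay at 220, 250, 290 and 300 min. A peak at 30 or 570 min marks a curve that was highest at the edge and not a maximum inside the stage.

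**Figure D1:**
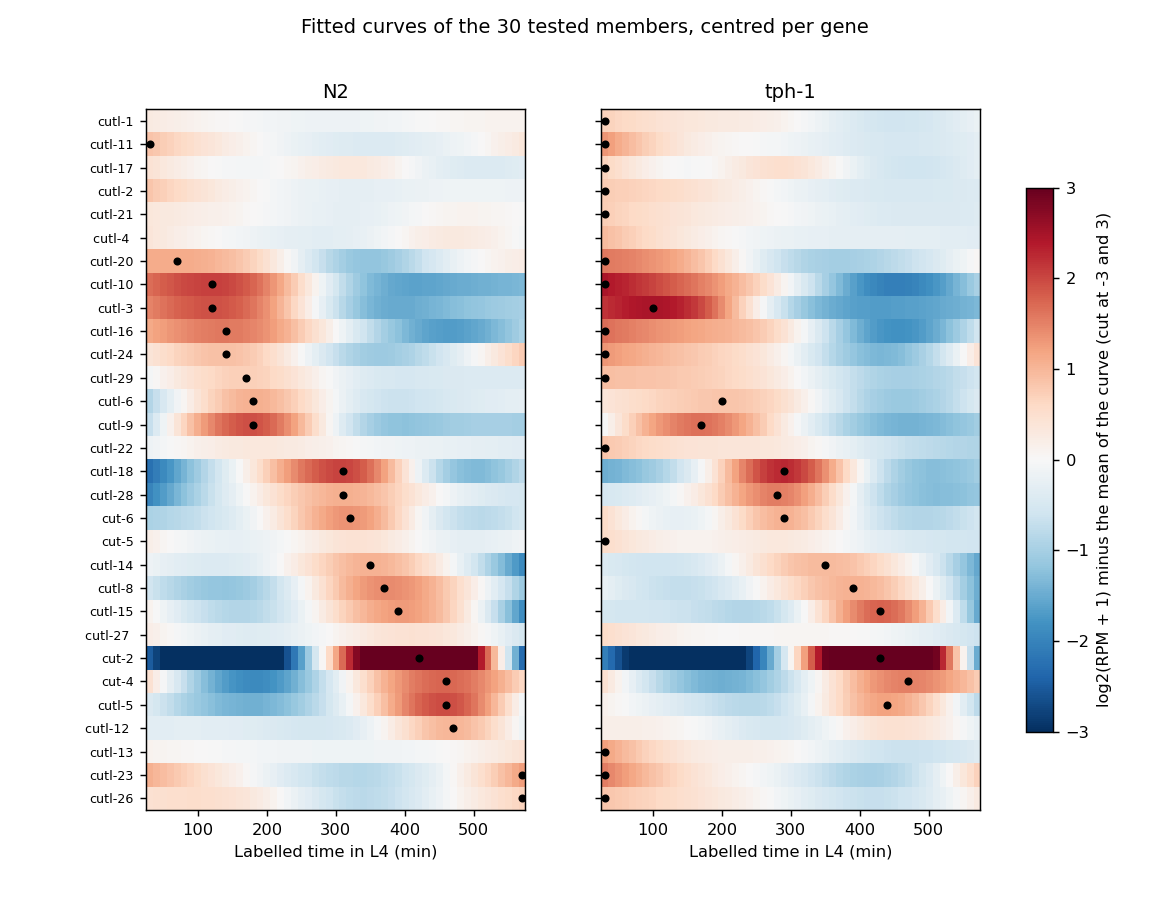
Fitted curves of log2(RPM + 1) for the 30 tested members along the labelled minutes in N2 (left) and tph-1 (right), each centred on its own mean, with red above and blue below that mean and colours cut at -3 and 3. Black dots mark the peak of each curve called in that strain. Members are ordered by their N2 peak, whether called or not. The first rows peak at the 30 min edge, cutl-1 and cutl-11 among them. The last rows, cutl-13, cutl-23 and cutl-26, peak at the 570 min edge. Between them lie early cutl-20, cutl-10 and cutl-3, then cutl-18 near 300 min, then cut-2, cut-4 and cutl-5 above 400 min.

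In N2 the early group, defined by fitted peaks at or before 200 min, held cutl-3, cutl-10, cutl-16, cutl-9, cutl-20 and cutl-24, with cutl-6, cutl-11 and cutl-29. Their fitted peaks lay at 120 min for cutl-3 and cutl-10, 140 min for cutl-16 and cutl-24, 180 min for cutl-9 and 70 min for cutl-20. In tph-1 they lay at 100 min for cutl-3, 170 min for cutl-9 and at the 30 min edge for the other 4. Leaving out each N2 set in turn placed the N2 peak of cutl-3 between 90 and 120 min and that of cutl-9 between 160 and 190 min. The peak of cutl-10 then ranged from 30 to 140 min, that of cutl-16 from 30 to 160 min and that of cutl-24 from 120 to 570 min, so the place of these 3 peaks moved with single sets. The 100 min medians placed part of the group later. In N2 cutl-16, cutl-9, cutl-24, cutl-6 and cutl-29 had their highest median from 200 to 300 min. Those medians were 17, 15.2, 22.6, 11.8 and 10.9 RPM.

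The clearest fall was that of cutl-3. In N2 its lowest, median and highest values were 9.63, 48 and 96.7 RPM in early animals, 0, 5.63 and 71.4 RPM in middle animals and 0, 2.38 and 12.7 RPM in late animals. In tph-1 they were 17.9, 45 and 104 RPM early, 0, 5.98 and 39.3 RPM in the middle and 0, 2.25 and 9.75 RPM late. Every early tph-1 animal was above every late one; the corresponding N2 ranges touched. The change from early to late was -2.28 ± 0.29 (SE) log2 units in N2 (limma, adjusted p = 7.92e-12) and -3.50 ± 0.27 in tph-1 (limma, adjusted p = 1.41e-25). Only 4 of the 8 N2 sets held both early and late animals, with 6 of the 77 late animals among them. Across 17 alternatives the N2 change ran from -3.59 to -1.25. The early and late medians were alike in the strains, so the 2 estimates do not show a weaker fall in N2. The same limit of sets holds for the N2 changes of cutl-10, cutl-16 and cutl-9.

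The gene cutl-10 fell over the same interval from a more scattered start. Its early N2 values ran from 2.19 RPM through a median of 37.8 to 266 RPM, the middle ones from 0 through 4.65 to 136.8 RPM, and the late ones from 0 through 1.72 to 8.78 RPM. In tph-1 the early values ran from 9.09 through 28.8 to 219 RPM, the middle ones from 0.413 through 7.04 to 530 RPM, and the late ones from 0 through 2.09 to 9.94 RPM. Early and late ranges overlapped in both strains, although only the lowest early animals lay within the late range. The fitted change was -1.82 ± 0.37 in N2 (limma, adjusted p = 9.16e-06) and -2.997 ± 0.33 in tph-1 (limma, adjusted p = 3.87e-15). With windows at 150 and 450 min the N2 change was -0.97 (adjusted p = 0.0385), under the size limit.

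The same direction was seen for cutl-16 and cutl-9. For cutl-16 the median fell from 16.8 RPM early through 6.91 to 1.11 RPM late in N2, within ranges of 4.81 to 27.8, 0 to 34.1 and 0 to 13.5 RPM. In tph-1 it fell from 14.2 RPM (3.26 to 28.7) through 6.18 (0 to 43.4) to 1.12 RPM (0 to 17.4). These were changes of -1.70 ± 0.28 in N2 and -2.42 ± 0.26 in tph-1 (limma, adjusted p = 3.01e-08 and 3.72e-16), with overlapping ranges. For cutl-9 the N2 medians were 9.99 RPM early (0.970 to 93.6), 4.57 in the middle (0 to 46.5) and 1.25 RPM late (0 to 10.1). The tph-1 medians were 12.7 RPM (0 to 30.9), 5.07 (0 to 219) and 1.48 RPM (0 to 4.75). Its change was -1.06 ± 0.35 in N2 and -2.29 ± 0.28 in tph-1 (limma, adjusted p = 0.00579 and 1.00e-12). The N2 call of cutl-9 was lost without set 1 (-0.88) and without set 4 (-0.58), and its sign turned with windows set at 150 and 450 min (0.23, adjusted p = 0.619).

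The remaining early members of high mean level were lowest between 300 and 400 min. In N2 cutl-20 had 100 min medians of 31.4, 27.3, 13.1, 5.42, 7.91 and 13.8 RPM from the start to the end of L4, and in tph-1 49.4, 31, 15.3, 5.32, 9.03 and 12.4 RPM. In N2 cutl-24 had medians of 18.1, 20.4, 22.6, 6.22, 7.75 and 19.8 RPM, and in tph-1 39.7, 21.1, 18.8, 4.59, 6.85 and 11.8 RPM. Both genes in both strains had their lowest median in the fourth of these steps. Late against early, cutl-20 changed by -1.32 ± 0.19 and cutl-24 by -1.27 ± 0.28 in tph-1 (limma, adjusted p = 2.00e-10 and 2.12e-05), while in N2 the estimates were -0.69 ± 0.23 and -0.16 ± 0.31 and neither met the size limit. The exons of cutl-20 share 221 bases with those of shc-1 on the same strand, so that its reads are uncertain as those of a single gene.

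**Figure D2:**
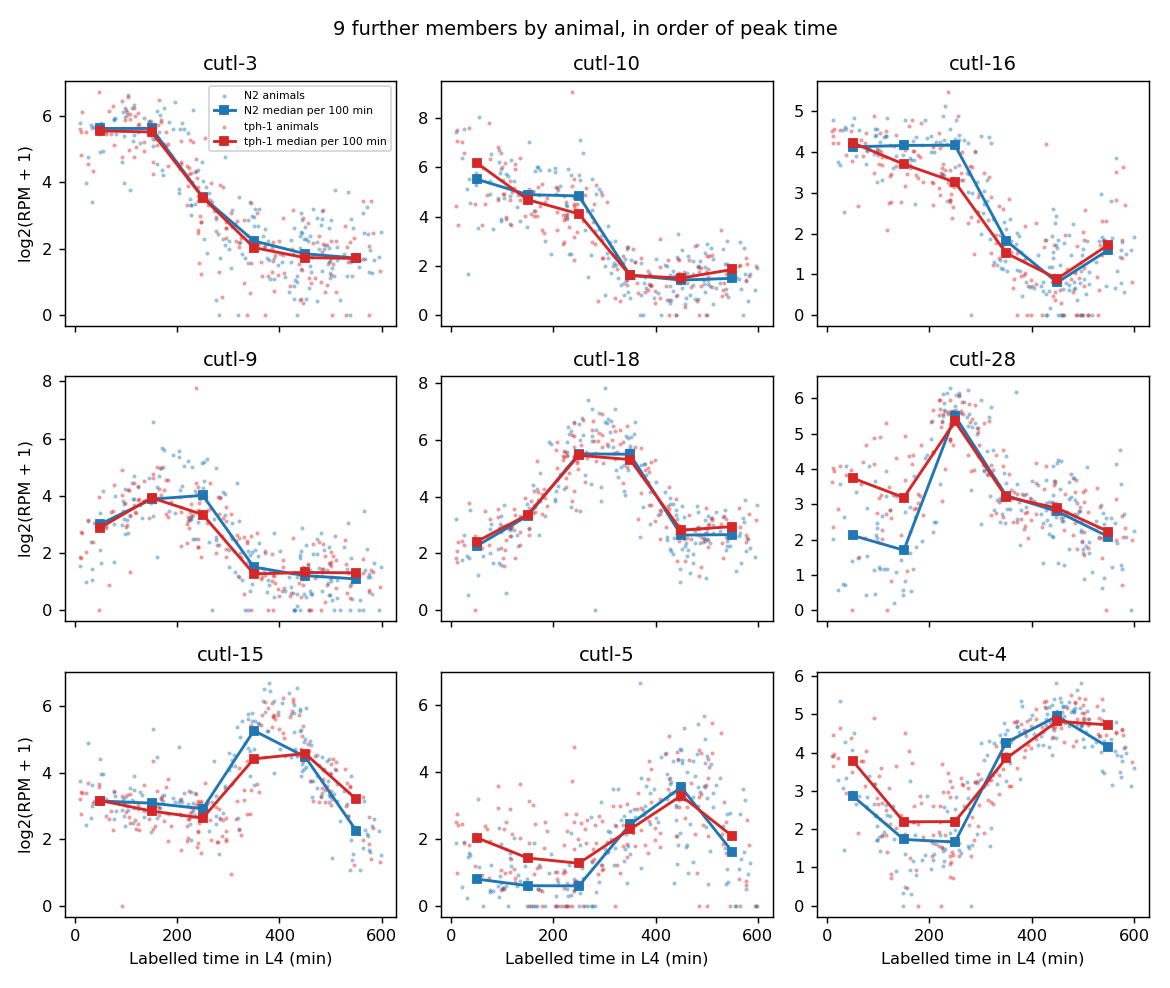
log2(RPM + 1) of 9 members in single animals against labelled minutes in L4, N2 in blue and tph-1 in red, with squares at the median of each 100 min. cutl-3 is high before 200 min, cutl-10, cutl-16 and cutl-9 are lower after 300 min than before, cutl-18 and cutl-28 are highest between 200 and 400 min, and cutl-15, cutl-5 and cut-4 are highest after 300 min.

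A second group, in which cutl-18 is described first, rose and fell around the middle of the stage. In N2 cutl-18 ran from 0.438 RPM through a median of 6.27 to 59.3 RPM early, from 0 through 44 to 228 RPM in the middle, and from 0.972 through 5.26 to 22 RPM late. In tph-1 it ran from 0 through 6.52 to 36.8 RPM, from 7.89 through 42.2 to 118.4 RPM, and from 1.33 through 6.19 to 19 RPM. The middle animals were mostly the highest in both strains, with overlapping extremes. Middle against the mean of both ends, it rose by 2.37 ± 0.18 in N2 and 2.38 ± 0.14 in tph-1 (limma, adjusted p = 1.91e-25 and 5.81e-37), and its peaks lay at 310 and 290 min. The N2 call held under all 17 alternative settings tried for it, with changes between 1.86 and 2.64. The exons of cutl-18 share 84 bases with T03F7.7 on the opposite strand.

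In N2 5 members were higher in the middle than at both ends, where 3.51% of all tested genes were, and 2 in tph-1, against 3.04%. Besides cutl-18 these were cutl-28, cut-6, cut-2 and cutl-14 in N2, and cutl-28 in tph-1. None of the members was called lower in the middle by limma, against 3.02% and 2.55% of all tested genes. At an unadjusted p under 0.05 and without the size limit, 8 members were higher and 8 lower in N2, beside 15.1% and 26.4% of all tested genes. In tph-1 5 were higher and 8 lower, beside 15.3% and 24.1%. Of the members, edgeR called 1 lower in N2 and 0 in tph-1, beside 3.50% and 2.63% of all tested genes. These members are named because they were called, that is, after their values were seen. In N2 cutl-28 had 100 min medians of 3.35, 2.25, 44.4, 8.53, 5.97 and 3.24 RPM, and in tph-1 12.4, 8.16, 39.8, 8.28, 6.43 and 3.69 RPM. The interval from 200 to 300 min was its highest in both strains, and the middle against both ends differed by 1.69 ± 0.19 and 1.57 ± 0.19 (limma, adjusted p = 7.27e-15 and 1.35e-12).

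The gene cut-6, a zona pellucida protein known from the dauer larva, was listed with a median of 0.911 RPM early, 7.63 in the middle and 1.28 RPM late in N2. Its tph-1 medians were 3.84, 7.17 and 3.14 RPM. The change in the middle was 1.58 ± 0.15 in N2 (limma, adjusted p = 3.46e-19) and 0.90 ± 0.16 in tph-1 (limma, adjusted p = 9.13e-07), the latter under the size limit of 1. For cutl-14 the estimates were 1.03 ± 0.16 and 0.88 ± 0.14, and its N2 call was lost in 4 of 16 alternatives, without set 3 (0.78) and without set 6 (0.97) among them, with a lowest value of 0.67. The peaks of cut-6 were at 320 and 290 min, those of cutl-14 at 350 min in both strains and those of cutl-8 at 370 and 390 min.

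The gene cutl-15 peaked later still, at 390 min in N2 and 430 min in tph-1. In N2 its 100 min medians were 7.84, 7.45, 6.52, 37.3, 21.3 and 3.78 RPM. In tph-1 they were 7.92, 6.17, 5.19, 20.3, 22.8 and 8.20 RPM. The rise came between 200 and 400 min in both, and the last 100 min were lower in N2 than in tph-1. Over windows, N2 ran from 3.61 through 7.596 to 38.8 RPM early, from 1.92 through 11.7 to 103 RPM in the middle and from 1.08 through 13.8 to 91.3 RPM late. The tph-1 windows ran from 0 through 6.89 to 19.4, from 0.920 through 6.60 to 68.1 and from 1.32 through 12.5 to 74.6 RPM. The 3 windows overlapped in both strains.

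The late group was led by cut-2, which lies at V:13414949-13416064 on the plus strand of WBcel235 with 2 coding exons and a coding length of 645 bases. The genome build used for the deposited values is not given in the sources used here. In early N2 animals cut-2 ran from 1.46 RPM through a median of 4.04 to 4105 RPM, in middle animals from 1.73 through 319 to 4951 RPM, and in late animals from 1.69 through 2905 to 5684 RPM. In tph-1 it ran from 1.68 through 10.9 to 152 RPM early, from 2.69 through 83.7 to 4641 RPM in the middle, and from 2.64 through 3217 to 5512 RPM late. Each late window held animals as low as the early ones, since the transcript was high for only part of it.

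In steps of 50 min the rise and fall of cut-2 were seen directly. The N2 medians were 7.66, 4.65, 3.77, 3.19, 9.83 and 32.6 RPM up to 300 min, then 1103, 2958, 3752 and 3590 RPM up to 500 min, and 238 and 10.3 RPM in the last 2 steps. The tph-1 medians were 20.3, 11, 7.02, 9.07, 12.2 and 67 RPM, then 1090, 3003, 3747 and 3388 RPM, and 2822 and 9.54 RPM. The level from 300 to 500 min was nearly equal in the strains, and the step from 500 to 550 min was the one in which they stood furthest apart. The fitted peaks were at 420 min in N2 and 430 min in tph-1, and leaving out sets moved them between 410 and 430 min and between 410 and 450 min.

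**Figure D3:**
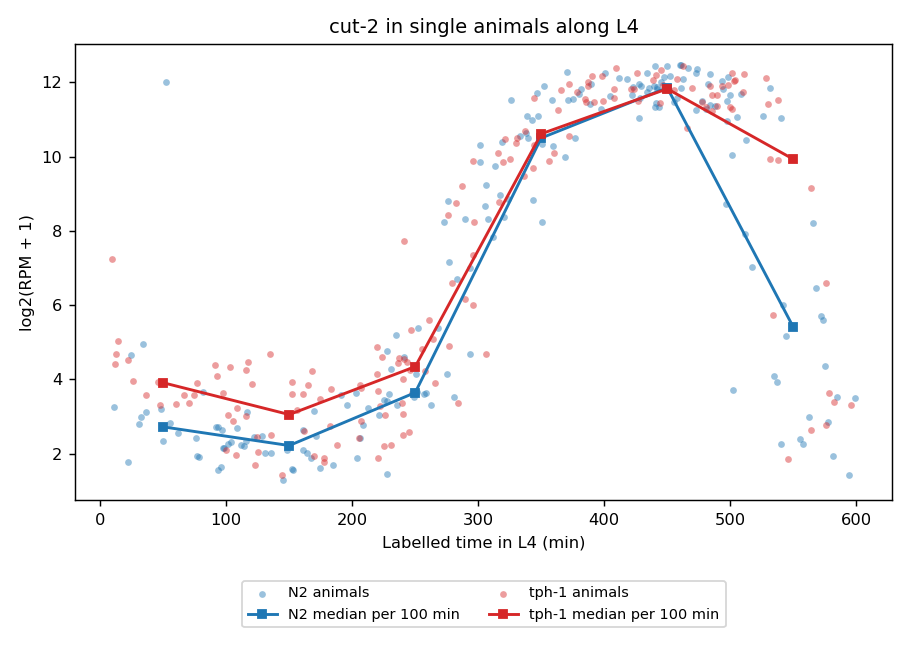
log2(RPM + 1) of cut-2 in each animal against labelled minutes in L4, N2 in blue and tph-1 in red, with squares at the median of each 100 min. The level was low up to about 250 min, near 12 on this scale from 400 to 500 min and low again in most animals after 550 min; 1 early N2 animal with 4105 RPM stands apart.

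Late against early, cut-2 rose by 3.74 ± 0.84 in N2 and 5.98 ± 0.71 in tph-1 (limma, adjusted p = 5.44e-05 and 1.37e-13). The N2 call in the middle (1.40 ± 0.47, limma, adjusted p = 0.0140) was lost without set 8 (1.29, adjusted p = 0.0759). The N2 change from early to late depended on how sets and windows were treated: it was 7.004 without the set covariate and 0.27 (adjusted p = 0.817) with windows at 150 and 450 min. Only 4 of the 8 N2 sets held both early and late animals, with 6 of the 77 late animals among them, whereas all 4 tph-1 sets held both. The single early N2 animal with 4105 RPM of cut-2 was labelled 51.84 min and had 5042296 reads. A transcriptional age predicted from genes outside the family placed it at 229 min. It had 21.8 RPM of cut-4, 53.5 RPM of cutl-3, 10.5 RPM of cutl-10 and 1.39 RPM of cutl-18. Without it the cut-2 estimate in N2 was 3.88, and each count of called members given here stayed as it was.

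The gene cut-4 was low from 100 to 300 min and highest from 400 to 500 min, where its median was 30 RPM in N2 and 27.2 RPM in tph-1. In the last 100 min the medians were 16.6 and 25.4 RPM. Its N2 windows ran from 0 through a median of 4.08 to 39.9 RPM, from 0 through 7.99 to 39.5 RPM and from 7.77 through 25.3 to 55.5 RPM. Its tph-1 windows ran from 0 through 6.08 to 28.7 RPM, from 0 through 6.81 to 27.1 RPM and from 12.6 through 26.1 to 44.7 RPM. No late animal was at 0 in either strain, although the ranges overlapped. The change was 1.32 ± 0.29 in N2 and 1.91 ± 0.26 in tph-1 (limma, adjusted p = 4.90e-05 and 3.67e-11), with peaks at 460 and 470 min. In N2 the cut-4 change fell below the size limit without set 4 (0.89) and was 0.15 (adjusted p = 0.726) with windows at 150 and 450 min.

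In N2 4 members were called higher and 4 lower late than early, beside 11.4% and 8.19% of all tested genes. In tph-1 2 were called higher and 10 lower, beside 10.1% and 23.6%. In tph-1, rescaling the libraries by median-of-ratios size factors left 4 members on each side, beside 13.8% of all tested genes higher and 6.17% lower, so that the balance of all genes turned as well. The rescaling moved the median change of all tested genes in tph-1 to -0.16. The median change of the 30 members was -0.20 in N2 and -0.78 in tph-1, beside -0.36 and -0.68 over all tested genes. In both strains cut-2 and cut-4 were higher and cutl-3, cutl-10, cutl-16 and cutl-9 lower late than early. In N2 cutl-5 (1.28 ± 0.37) and cutl-28 (1.58 ± 0.33) were also higher, and in tph-1 cutl-29 (-1.43 ± 0.27), cutl-20, cutl-24, cutl-6 (-1.09 ± 0.30), cutl-22 (-1.07 ± 0.30) and cutl-13 (-1.04 ± 0.28) were also lower; these were named because they were called. Of the alternatives run for them, 6 of 11 ended the tph-1 call of cutl-13, 5 of 11 that of cutl-6, 4 of 12 those of cutl-22 and cutl-24, 3 of 11 that of cutl-29 and 2 of 12 that of cutl-20. Single tph-1 sets ended the calls of cutl-6 (-0.95 without set 1), cutl-13 (-0.86 without set 2, -0.96 without set 3) and cutl-22 (-0.92 without set 3). The N2 call of cutl-5 was lost in 3 of 16, without set 4 (0.84, limma, adjusted p = 0.0504) and with windows at 150 and 450 min (0.23, limma, adjusted p = 0.656) among them. That of cutl-28 was lost without the set covariate (0.50, limma, adjusted p = 0.0253). The N2 medians of cutl-28 were 3.03 RPM early and 5.21 RPM late. Only 6 of the 77 late N2 animals came from sets that also held early ones. The exons of cutl-5, cutl-6, cutl-13 and cutl-15 share 50, 14, 68 and 66 bases with a gene on the opposite strand, and those of 5 further members (cut-3, cutl-8, cutl-11, cutl-17 and cutl-23) share 9 to 47, and whether counting used strand is not given in the sources used here.

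Peak times could be compared between strains for few members. Of the 20 members called in both, 13 peaked earlier and 5 later in tph-1, beside 26.3% and 18.1% of the 6767 tested genes called in both, but these counts include the edges of the search. Of the same 20, 12 had a peak inside the searched range in both, and there the tph-1 peak was earlier for 6, later for 5 and at the same 10 min step for 1. The shifts ran from -30 min for cut-6 and cutl-28 to 40 min for cutl-15, with a median of -5 min. These extreme shifts depended on the curve. With a spline of 6 df cutl-28 peaked at 250 min and cutl-15 at 400 min in both strains. The peaks of cut-6 then lay at 300 min in N2 and 290 min in tph-1. Transcriptional age minus labelled minutes had a median of 55.1 min in tph-1 and -8.37 min in N2; its part in these timings was not tested.

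The strain comparison asks whether the level of the family in tph-1 mutants differs from N2 at a matched labelled time. It was made over 12 set levels, 8 of N2 and 4 of tph-1, and limma called 0 of 30 members higher and 0 lower, beside 0.287% and 0.147% of all tested genes. At an unadjusted p under 0.05 it gave 3 higher and 0 lower, beside 7.20% and 20.3%. An edgeR fit over animals, with no set term, called 16 higher and 1 lower, beside 35.1% and 25.6%. Each set holds 1 strain, so animals are not replicates of the strain comparison. The edgeR counts therefore do not measure a strain difference beyond sets. The differences ran from -0.28 for cutl-26 to 0.61 for cut-6, and 19 of 30 were above 0. Their median was 0.11, beside -0.10 over all tested genes. The 3 smallest p-values, named for that reason, belonged to cut-6 (0.61 ± 0.21, adjusted p = 0.108, limma), cutl-13 (0.61 ± 0.23, adjusted p = 0.123) and cut-2 (0.53 ± 0.23, adjusted p = 0.151). Of these, cutl-13 was near the floor, with medians over all animals of 0.991 RPM in N2 and 2.06 RPM in tph-1. A single read was worth up to 1.70 RPM in N2 libraries and up to 2.28 RPM in tph-1 libraries. Without N2 set 7 cut-6 (0.71, adjusted p = 0.0335) and cutl-13 (0.77, adjusted p = 0.0167) passed, while 1553 of all tested genes were then called higher or lower. With transcriptional age in place of minutes the cut-2 difference was -0.51 (adjusted p = 0.638). A difference that misses the threshold does not show equal levels: the standard errors of these 3 estimates alone span 0.21 to 0.23 log2 units.

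**Figure D4:**
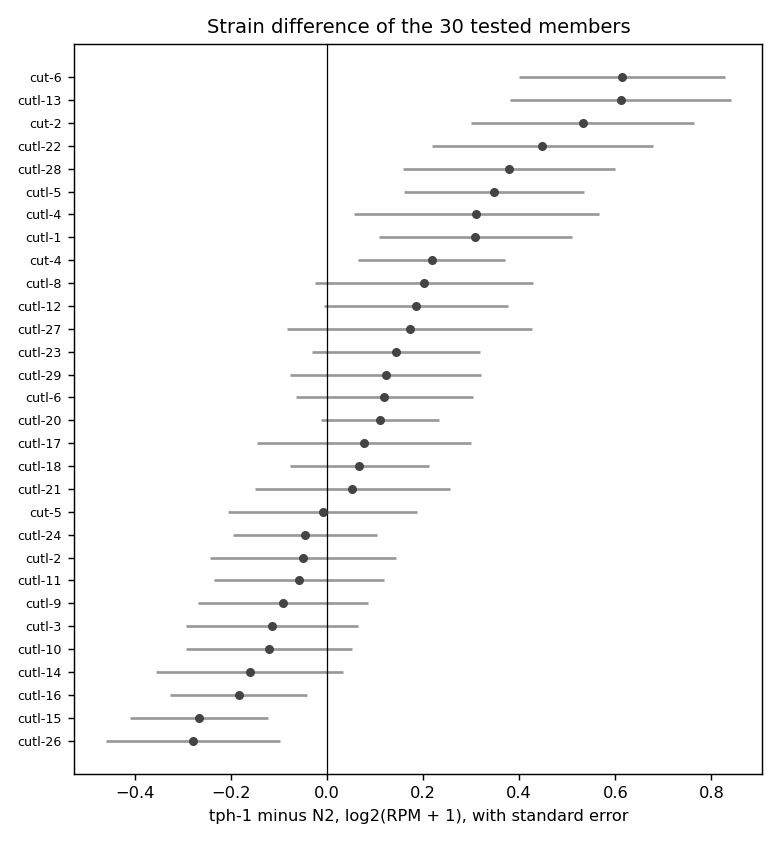
Difference tph-1 minus N2 in log2(RPM + 1) for the 30 tested members at a matched labelled time, with points at the estimate over 12 sets and bars of 1 standard error. Estimates run from -0.28 for cutl-26 to 0.61 for cut-6, and none passed the adjusted threshold.

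The share of members with a higher median in tph-1 than in N2 was largest in the first 100 min. This share counts directions and does not measure how far apart the strains stood. There 32 of the 35 members (91.4%) had a higher median in the 18 tph-1 animals than in the 23 N2 animals, beside 58.9% of all tested genes. The 2 shares rest on unlike sets of genes, since the 35 include the 5 members too low to be tested. Among those 5, the N2 and tph-1 medians of that interval were 0.941 and 2.64 RPM for cut-1 and 0.583 and 1.50 RPM for cut-3. Of those 18 tph-1 animals 14 came from set 4. Among the members described above, the N2 and tph-1 medians of that interval were 0.875 and 6.51 RPM for cut-6, 3.35 and 12.4 RPM for cutl-28, 6.30 and 12.8 RPM for cut-4, and 31.4 and 49.4 RPM for cutl-20. For cutl-3, at 48 and 45.6 RPM, the direction was the opposite. From 300 to 400 min 4 of the 35 (11.4%) were higher in tph-1, beside 17.1% of all tested genes. These are descriptions of medians, since each set holds 1 strain and few sets reach each interval; strain and set cannot be told apart there.

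The shape of the course was compared by an interaction of strain with the spline, over animals with set levels in the fit. It was called for 1 of 30 members, cutl-15 (limma, adjusted p = 0.0384), beside 2.16% of all tested genes, and 10 members had an unadjusted p under 0.05, beside 14.7% of all tested genes. The call of cutl-15 was lost without N2 set 6 (adjusted p = 0.209), set 7 (0.249) or set 8 (0.379) and without tph-1 set 1 (0.243) or set 2 (0.112). The curves of cutl-15 are those described above, with the N2 level higher from 300 to 400 min and the tph-1 level higher from 500 to 600 min. With transcriptional age in place of the labelled minutes, an alternative chosen after the data were seen, 17 of 30 members were called, beside 4574 of the 14293 tested genes.

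Genes outside the family with the most similar N2 curves were found for its 3 members of highest mean RPM, by Pearson's correlation of fitted curves from 30 to 570 min, a description over points that share a smooth fit. For cut-2 these were oac-30 (r = 0.999 in N2, 0.971 in tph-1), F26F2.10 (0.999 and 0.994) and M110.9 (0.999 and 0.964). For cutl-18 they were elf-1 (0.9998 and 0.931), bli-1 (0.997 and 0.996), a cuticle collagen, and cpg-8 (0.996 and 0.996). For cutl-10 they were epc-1 (0.9999 and 0.940), Y71H2AM.1 (0.9997 and 0.974) and attf-5 (0.9996 and 0.993). Of members near each other on a chromosome, cutl-28 and cutl-26 lie 10358 bases apart on IV. In N2 the first peaked at 310 min and the second at the 570 min edge, which ranged from 30 to 570 min on leaving out sets. On V cutl-1 and cut-2 lie 8834 bases apart, and cutl-1 was not called in N2.

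Other matrix proteins of the precuticle and of sense organs, most of them with a zona pellucida domain, were followed as a fixed list of 7, all tested. In N2 5 were called along L4 and in tph-1 6. In each strain 4 were lower late than early, namely fbn-1, let-653, noah-1 and noah-2, which belong to the temporary matrix laid down before a new cuticle. In N2 dyf-7 was higher. The fitted peaks of fbn-1 and let-653 were at 160 min in N2 and 150 min in tph-1, those of noah-1 at 200 and 230 min, and those of noah-2 at 200 and 220 min. In RPM the median of fbn-1 went from 534 early through 20.0 to 9.88 late in N2, and that of noah-1 from 245 through 312 to 6.22. In both strains these 4 precuticle genes peaked ahead of cutl-18, cut-2 and cut-4. They did not peak ahead of the early members. The fitted peaks of cutl-3, at 120 min in N2 and 100 min in tph-1, and of cutl-20, at 70 and 30 min, came before all 4. Those of cutl-10, cutl-16 and cutl-24 did so as well, but moved with single sets.

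Among 12 genes of cuticle cross-linking and processing, 11 were called along L4 in each strain. In N2 2 were higher and 1 lower late than early, 3 were higher and 2 lower in the middle; in tph-1 the counts were 0 and 5, and 3 and 1. No gene of either list was called between the strains by limma. The dual oxidase bli-3, which acts in tyrosine cross-linking, had N2 medians of 48.9, 44.8 and 35.8 RPM over the windows and was not called. The peroxidase mlt-7 had medians of 44.6, 18 and 24.1 RPM, with animals up to 1530 RPM early and 718 RPM late. The transcript of dpy-11, a thioredoxin-like enzyme of collagen processing, peaked at 290 and 280 min.

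Markers of the tissues that may carry cuticlin transcripts were followed beside them. The summed RPM of 7 tested seam markers of 8 listed had medians of 237, 22.6 and 12.2 in early, middle and late N2 animals and 298, 33.1 and 14.2 in tph-1, with early ranges of 49.5 to 815 and 135 to 732. Late against early, limma called 3 of the 7 lower in N2 and 5 in tph-1. The sum followed grd-10, whose N2 medians were 203, 2.08 and 1.41 RPM. The N2 sums of the 3 main epidermis markers had medians of 135, 734 and 60.3 RPM, high in the middle with rol-6. The tph-1 sums had medians of 128.7, 730 and 44.3 RPM. The N2 medians of the other 2 markers fell, at 55.1, 24.6 and 7.26 RPM for elt-3 and 77.3, 42.2 and 3.20 RPM for dpy-7. In tph-1 elt-3 also fell, at 51.1, 24.3 and 10.0 RPM, while dpy-7 had 75.6, 215 and 3.07 RPM. Of the 3 epidermis markers, 2 were called higher in the middle than at both ends in each strain. The summed RPM of the 5 pharynx markers had early and late medians of 1753 and 340 in N2 and 1972 and 285 in tph-1, and 5 of 5 and 4 of 5 were called lower late than early. That of the 3 glia markers had medians of 88.2 and 28.1 in N2 and 99.8 and 47 in tph-1, with 1 of 3 called lower in each strain. That of the 2 vulva markers tested of 3 listed had medians of 31.3 and 11.1 in N2 and 31.7 and 11 in tph-1, with 0 of 2 and 2 of 2 called lower. The part of these tissues in the courses of the cuticlins was not tested.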

How the data were processed

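The authors deposited 1 table per strain of RPM values, reads per gene scaled to the reads in all listed genes; the unit was taken from the table names and tested on the values. The submitters' processing notes name STAR 2.7.9a. Genome build, annotation, counting tool and strand use are not stated in the labels or headers. Low values in each library were whole multiples of what 1 read is worth, and 100% came out whole within 0.1 reads, so reads were recovered. Reads carry no molecular identifiers, so depth gives counting error only.

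Tests were run on log2(RPM + 1) with limma 3.58.1 (trend) in R 4.3.3 over the 14293 genes that reached 5 RPM in 10% of animals or more, adjusted over all of them by Benjamini-Hochberg at 0.05; this scale understates changes of low genes. Within a strain a natural spline of minutes (4 df) or 3 windows were fitted with set as a covariate; window changes also needed an absolute size of 1. The strain test had 2 stages, a shared spline with a level per set and limma on the 12 levels. The course test was the interaction of strain and spline over animals. Animals are separate samples, but those of 1 set may share conditions. The scripts were tested on simulated data. edgeR 4.0.16 on recovered reads was an alternative and called 42.2% and 48.1% of tested genes along L4 in N2 and tph-1. Transcriptional age came from partial least squares (5 components, scikit-learn 1.9.0, Python 3.11.15) on 14263 tested genes outside the family, trained on N2.

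Values are given in full for the 6 members of highest mean RPM, the 4 others with the widest fitted range and members called between strains; others by ranges, peaks and counts, and further members where said to be named after their values were seen. Members, gene lists and tests were chosen with earlier results of these data known.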

Additional observations from a re-analysis of the deposited data

Results flagged for a closer look

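The level of cutl-3 in tph-1 set 4, 3.35 on the log2(RPM + 1) scale at the mean minute, lay apart from the other 3 tph-1 sets, of which the nearest was at 3.09. The level of cutl-13 in N2 set 7, 2.22, lay apart from the other 7 N2 sets, of which the nearest was at 1.37. These were 2 of 24 groups of sets examined. The members examined were those picked by mean RPM or fitted range, with cut-6 and cutl-13, which had the smallest strain p-values in these data. Chance flags about 1 group in 20 where members are not picked by their values. The 2 of 24 therefore cannot be set against that share. The cutl-13 difference between strains passed the threshold without N2 set 7. The course of cutl-15 along L4 differed between strains by the interaction of strain with the spline (limma, adjusted p = 0.0384).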

How the results depend on the processing

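Testing only genes with a mean of at least 10 RPM left 7688 genes, and fewer members, to test. The members that reached it were cut-2, cut-4, cutl-3, cutl-10, cutl-15, cutl-18, cutl-20, cutl-22, cutl-24 and cutl-28. The member counts under this filter are out of these genes and not out of all tested members. Along L4, 9 members were called in N2 and 10 in tph-1, beside 56.9% and 67.6% of those genes. Lower late than early were 2 in N2 and 5 in tph-1, beside 10.2% and 21.9%. In the middle 3 were higher in N2, beside 5.33%. A pseudocount of 5 gave 2 higher and 2 lower late in N2, beside 8.24% and 4.18% of all tested genes. It gave 3 higher in the middle in N2, beside 2.46%, and 5 lower late in tph-1, beside 8.22%. Windows at 150 and 450 min gave 2 higher late and 1 lower in the middle in N2, beside 9.93% and 2.9% of all tested genes. They reversed cutl-9 in N2 (0.23). A pseudocount of 0.5 also gave 1 lower in the middle, with 3.45% of all tested genes lower in N2 and 2.96% in tph-1. Rescaling gave 4 higher and 4 lower late in tph-1, beside 13.8% and 6.17% of all tested genes. With edgeR 1 was lower in the middle in N2, beside 3.5% of all tested genes. In tph-1 it gave 5 higher and 4 lower late, beside 15.1% and 7.47%, and 4 higher in the middle, beside 4.07%. Between strains, over animals with no set term, it gave 16 higher and 1 lower, beside 35.1% and 25.6%. It gave 4 differing in course, beside 6.11%. With limma over animals and no set term the strain counts were 8 and 2, beside 20.1% and 43.6% of all tested genes. Transcriptional age, added after seeing the data, gave 17 differing in course, beside 4574 of the 14293 tested genes. It turned the cut-2 strain difference to -0.51. The cause of these changes was not tested. Set numbers 1 to 4 occur in both strains and share only a number (correlations of same-numbered deviations -0.03 to 0.12): with the number as a replicate block 3 members were higher and 2 lower in tph-1, beside 7.64% and 27.8% of all tested genes, and over the same sets without it 3 and 1, beside 5.27% and 21.4%. Leaving out 1 set at a time gave 20 to 23 members called along L4 in N2 and 24 to 29 in tph-1; late against early 2 to 4 higher (2 without set 4) and 3 to 5 lower in N2, 2 to 4 higher (4 without set 3) and 10 to 12 lower in tph-1; in the middle 4 to 5 higher and 0 to 2 lower (1 without set 4, 2 without set 5) in N2, 2 to 4 higher (4 without set 2) and 0 to 1 lower (1 without set 1) in tph-1; 0 to 2 higher and 0 to 0 lower between strains (2 without N2 set 7); and 0 to 4 differing in course (2 without N2 set 1, 3 or 4; 0 without N2 sets 6 or 7 or tph-1 sets 1 or 2; 4 without tph-1 set 3). Leaving out 1 set, 47.7% to 55% of all tested genes were called along L4 in N2 and 68.2% to 77.6% in tph-1. Late against early, 10.9% to 11.8% were higher and 6.91% to 13.1% lower in N2. In tph-1 these were 9.28% to 10.5% and 20.4% to 32.3%. In the middle, 3.36% to 3.72% were higher and 2.86% to 3.48% lower in N2. In tph-1 these were 2.78% to 3.45% and 2.18% to 3.99%. Without N2 set 7, 3.81% were higher between strains. In course 196 to 688 genes differed. Over all settings 177 repeated counts stayed within 1.5 times, 26 rose and 17 fell beyond that. Of single-member values 702 kept direction and side of the threshold, 44 lost the call, 13 gained it and 2 turned. A single read was worth up to 2.28 RPM, which limits the low members.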
